A study of Mus musculus with 3 samples.

Results

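AP-1 is a family of transcription factors that bind DNA as dimers of Fos, Jun and related basic leucine zipper proteins, and it is one of the first nuclear responses of a cell to growth factors, injury and stress. The 10 genes described here are 5 AP-1 subunits (Fos, Fosb, Jun, Junb and Jund), the stress-induced partner Atf3, and 4 genes switched on in the same early wave, Egr1, Nr4a1, Ier2 and Klf6. They were taken by symbol from a list of names, and each had 1 row in every table, 10 of the 28851 nuclear gene symbols listed. Immediate early genes are transcribed without new protein synthesis, within minutes of a stimulus such as serum, and their short-lived RNAs and proteins then set a slower second wave of target genes. In the embryonic kidney, growth factor signals pass between the ureteric bud, the nephron progenitors that cap it and the surrounding stroma. Whether those signals act through these 10 genes was not tested.

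Transcripts were counted in sorted cells of the mouse embryonic kidney, C57BL/6 background, with SORT-seq, in which the wells of a 384-well plate carry barcodes and transcripts carry molecular identifiers (UMIs). The E12.5 cultured plate held cells of kidneys explanted at E12.5 (E, embryonic day) and kept in culture for 5 days, from mice with an LGR6-EGFP-IRES-CreERT2 allele and a ROSA26-tdTomato reporter. The E11.5 cultured plate held cells of the same genotype explanted at E11.5, with 7 days of culture in its title and 5 days in its stage label. The uncultured plate held E11.5 cells with LGR6-EGFP-IRES-CreERT2 and without the reporter, taken directly. The culture medium of the explants contained 10% fetal calf serum, and cells of all 3 plates were freed with collagenase before the sort. No cell was measured before dissociation, and whether it acted equally on explants and fresh tissue was not tested. The sources used here give neither the sort gate nor the number of embryos, nor whether the Cre was activated. Culture, any difference in dissociation, the reporter allele and the sequencing run, which the cultured plates shared, cannot be told apart. The starting stage adds to these on the E12.5 cultured plate.

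Each plate is 1 sample, so no test was run, and all levels are CPM, UMI counts per 1000000 counts of nuclear genes summed over the kept single-cell wells. Kept wells numbered 200 of 327 on the E12.5 cultured plate, 300 of 327 on the E11.5 cultured plate and 337 of 369 on the uncultured plate, with median depths of 9212, 8992 and 6732 counts and median mitochondrial shares of 3.61%, 3.49% and 7.28%. A further 38 and 36 wells of the cultured plates, labelled as holding more than 1 cell, are described apart. Deep wells, those over 3 times their plate's median, held 15%, 10.6% and 45.6% of the counts. Markers of nephron progenitors (9 genes led by Six2) summed to 383, 238 and 1352 CPM, and 10 stromal matrix markers led by Col1a1 to 20310, 26861 and 2828 CPM, so the cultured plates were mostly stromal by their markers. Leukocyte markers summed to 322, 1585 and 422 CPM, with at least 3 of 10 such markers present in 6, 40 and 20 kept wells. Bracketed ranges are 95% intervals, exact Poisson for CPM and exact binomial otherwise, that cover counting error alone.

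The DNA before the RefSeq start sites of 4 members is shown, 250 bases each, build GRCm38.p6, in the direction of transcription. Each of these 4 carries a marked motif. RefSeq start-site windows, which run on to 50 bases after the start, were matched for 8 of the 10 members, all but Egr1 and Ier2. Capitals mark TGACG, the core of the cAMP response element, on either strand (CGTCA where it lies on the other), TGACATCA, an octamer bound by Jun dimers, and the TATA box TATAAA.
Fos, chr12:85473640-85473889, plus strand: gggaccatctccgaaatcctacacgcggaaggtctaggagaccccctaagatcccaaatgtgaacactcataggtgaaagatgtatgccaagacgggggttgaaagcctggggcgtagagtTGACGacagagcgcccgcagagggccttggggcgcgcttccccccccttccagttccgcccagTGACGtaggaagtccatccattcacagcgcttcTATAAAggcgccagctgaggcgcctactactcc
Jun, chr4:95052223-95052472, minus strand: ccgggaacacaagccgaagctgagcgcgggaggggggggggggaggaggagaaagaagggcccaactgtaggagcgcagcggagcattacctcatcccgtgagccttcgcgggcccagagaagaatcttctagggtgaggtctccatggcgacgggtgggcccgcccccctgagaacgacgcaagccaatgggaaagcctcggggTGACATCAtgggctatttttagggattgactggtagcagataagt
Nr4a1, chr15:101266596-101266845, plus strand: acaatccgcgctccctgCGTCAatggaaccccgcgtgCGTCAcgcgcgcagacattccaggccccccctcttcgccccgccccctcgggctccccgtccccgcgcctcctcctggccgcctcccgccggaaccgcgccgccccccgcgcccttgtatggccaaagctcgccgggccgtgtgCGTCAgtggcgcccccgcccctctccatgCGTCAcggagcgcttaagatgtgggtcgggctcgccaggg
Atf3, chr1:191183334-191183583, minus strand: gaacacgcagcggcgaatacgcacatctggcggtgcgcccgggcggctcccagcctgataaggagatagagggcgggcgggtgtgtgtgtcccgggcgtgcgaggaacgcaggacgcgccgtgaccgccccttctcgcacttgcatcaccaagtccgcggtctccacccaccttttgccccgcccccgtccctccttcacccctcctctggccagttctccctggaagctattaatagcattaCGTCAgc
The Fos window held TGACG at 129 and 66 bases before the start and a TATAAA at 33. Nr4a1 held 4 copies of TGACG, all on the opposite strand, of which the nearest began 40 bases before the start. In Atf3 the motif began 7 bases before the start, and Jun had TGACATCA at 45 bases. TGACG stood in 5 of the 8 member windows (also Fosb and Junb), against 20.8% of the 32851 windows of all genes, and TGACATCA in 2 (Jun and Klf6), against 3.62%. TATAAA stood in 2 (Fos and Junb), against 13.6%. In Junb it began at the start site itself, so only the Fos match lay before the start, where a TATA box would. The classical AP-1 site TGACTCA, the full element TGACGTCA, which contains TGACG, and the CArG box of serum response factor were in none of the 8, against 5.20%, 1.79% and 1.63% of all windows. The Jund window held none of the motifs searched. These are matches of letters in short windows, searched on both strands, and occupancy was not measured. The windows of all genes were not matched to those of the members for base composition. Any part of these motifs in the differences between plates was not tested. Bases farther upstream, and any window of Egr1 or Ier2, were not searched. Absence here therefore does not mean that a gene lacks the site.

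Against the uncultured plate, 9 of the 10 members were at least 2-fold higher on the E12.5 cultured plate, where 18.9% of the 15179 genes compared were, and all 10 on the E11.5 cultured plate, where 20.9% of 15774 genes were. No member was at least 2-fold lower, which 13.1% and 11.3% of genes were. The median member log2 ratio was 2.54 on the E12.5 cultured plate, beside -0.01 for all genes, and 3.04 on the E11.5 cultured plate, beside 0.07. Both comparisons share the uncultured plate. Summed, the 10 genes made up 6960 CPM (6853 to 7067) and 8015 CPM (7917 to 8113) in cultured cells, and 1057 CPM (1026 to 1089) in uncultured cells.

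**Figure D1:**
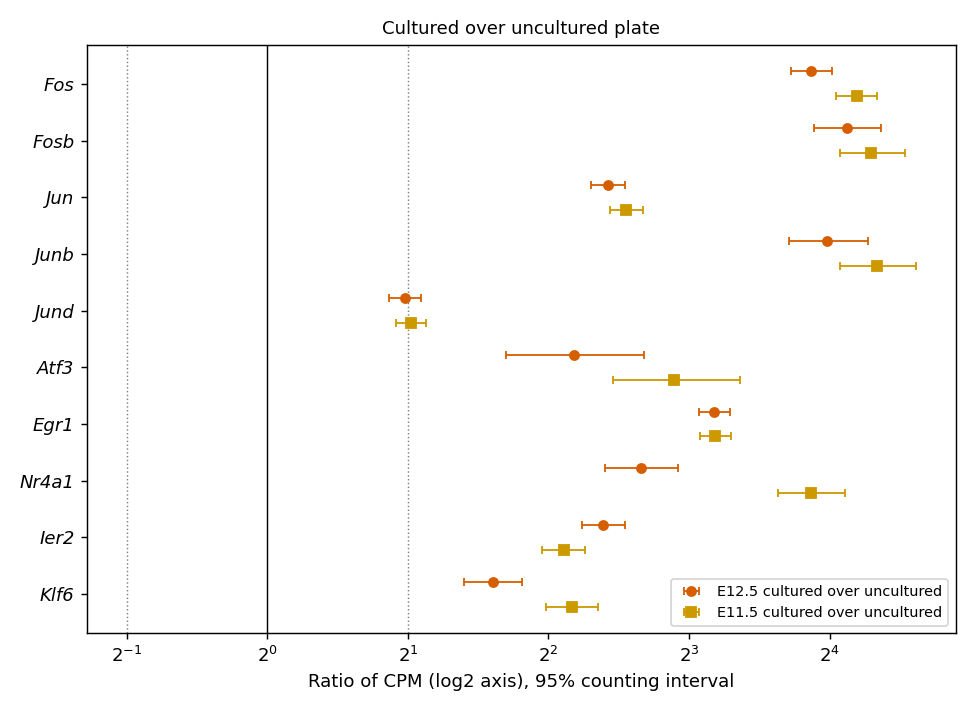
Ratio of CPM of each member on a log2 axis, E12.5 cultured over uncultured (circles) and E11.5 cultured over uncultured (squares), with 95% counting intervals; dotted lines mark 2-fold. Fosb, Junb and Fos lie between 14.6 and 20.2 in both comparisons, and Jund at 1.97 and 2.03.

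Among the Fos subunits, which cannot pair with themselves and need a Jun partner, Fos reached 1463 CPM (1415 to 1513) on the E12.5 cultured plate, 1830 CPM (1783 to 1877) on the E11.5 cultured plate and 100 CPM (90.9 to 110) on the uncultured plate. Its ratios over the uncultured plate were 14.6 (13.2 to 16.2) and 18.3 (16.5 to 20.2). In single wells Fos had a lowest level of 0, a median of 1243 and a highest level of 5444 CPM on the E12.5 cultured plate, 0, 1416 and 8362 CPM on the E11.5 cultured plate, and 0, 0 and 2128 CPM on the uncultured plate. The wells of the plates therefore overlapped, but the median uncultured well had no Fos count. With every well thinned to 1000 counts, Fos was found in 69.5% and 69.3% of cultured wells and 8.90% of uncultured wells. Fosb, a close relative that is likewise induced early, stood at 686, 775 and 39.4 CPM in the same order of plates, 17.4 (14.8 to 20.6) and 19.6 (16.8 to 23.2) times the uncultured level. Its well medians were 459, 457 and 0 CPM, with highest wells of 5214, 5838 and 1417 CPM.

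The Jun subunits, which can pair with each other or with Fos proteins, differed in the size of their ratios. Jun itself had 982 and 1075 CPM in cultured cells and 183 CPM in uncultured cells, ratios of 5.36 (4.94 to 5.83) and 5.87 (5.43 to 6.36). Its median well held 829, 774 and 125 CPM and its highest 4960, 7233 and 2522 CPM, so that the uncultured wells lay inside the cultured range. Junb, which often restrains Jun in growth control, had 461 and 588 CPM against 29.1 CPM, ratios of 15.8 (13.1 to 19.3) and 20.2 (16.8 to 24.5), and was found in 28.0% and 34.7% of thinned cultured wells and 2.37% of uncultured ones. Jund, the subunit that most cells express without a stimulus, had 551 and 569 CPM against 280 CPM. Its ratios of 1.97 (1.82 to 2.13) and 2.03 (1.89 to 2.19) were the smallest of the 10 members and straddled the 2-fold line. Jund well medians were 504, 479 and 247 CPM, and thinned wells with a count made up 36.0%, 35.7% and 24.6%.

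Atf3, a stress-induced factor that dimerizes with Jun proteins and often represses, was found in few cells. It had 54.5 CPM (45.5 to 64.8) and 89.4 CPM (79.3 to 100) on the cultured plates and 12 CPM (8.92 to 15.8) on the uncultured plate, ratios of 4.53 (3.25 to 6.42) and 7.44 (5.49 to 10.3). The median well of every plate was at 0, and the highest wells held 909, 2723 and 819 CPM. The 5% of wells with the most Atf3 counts carried 47.7%, 55.8% and 70.0% of all Atf3 counts, so its level rests on a minority of wells on every plate. Only 50 counts stand behind the uncultured value.

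Of the early genes outside AP-1, Egr1, a zinc-finger factor and one of the standard markers of growth factor and serum stimulation, was found in 98.5% and 97.0% of cultured wells and in 54.6% of uncultured wells. It had 1705 and 1713 CPM on the cultured plates and 188 CPM on the uncultured plate, ratios of 9.05 (8.39 to 9.79) and 9.09 (8.44 to 9.82). Its well medians were 1646, 1591 and 84.6 CPM and its highest wells 5774, 7209 and 2554 CPM. The lower quartile of cultured wells, 935 and 810 CPM, lay above the upper quartile of uncultured wells, 270 CPM. Nr4a1, an orphan nuclear receptor, had 240 and 554 CPM against 38.0 CPM, ratios of 6.32 (5.29 to 7.59) and 14.6 (12.4 to 17.3). Its well medians were 114, 328 and 0 CPM. Ier2, a small nuclear protein, had 589 and 485 CPM against 113 CPM, 5.23 (4.71 to 5.82) and 4.31 (3.88 to 4.79) times the uncultured level. Klf6, a zinc-finger factor expressed in injured and developing tissue, had 227 and 336 CPM against 74.8 CPM, ratios of 3.04 (2.64 to 3.51) and 4.49 (3.95 to 5.11).

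**Figure D2:**
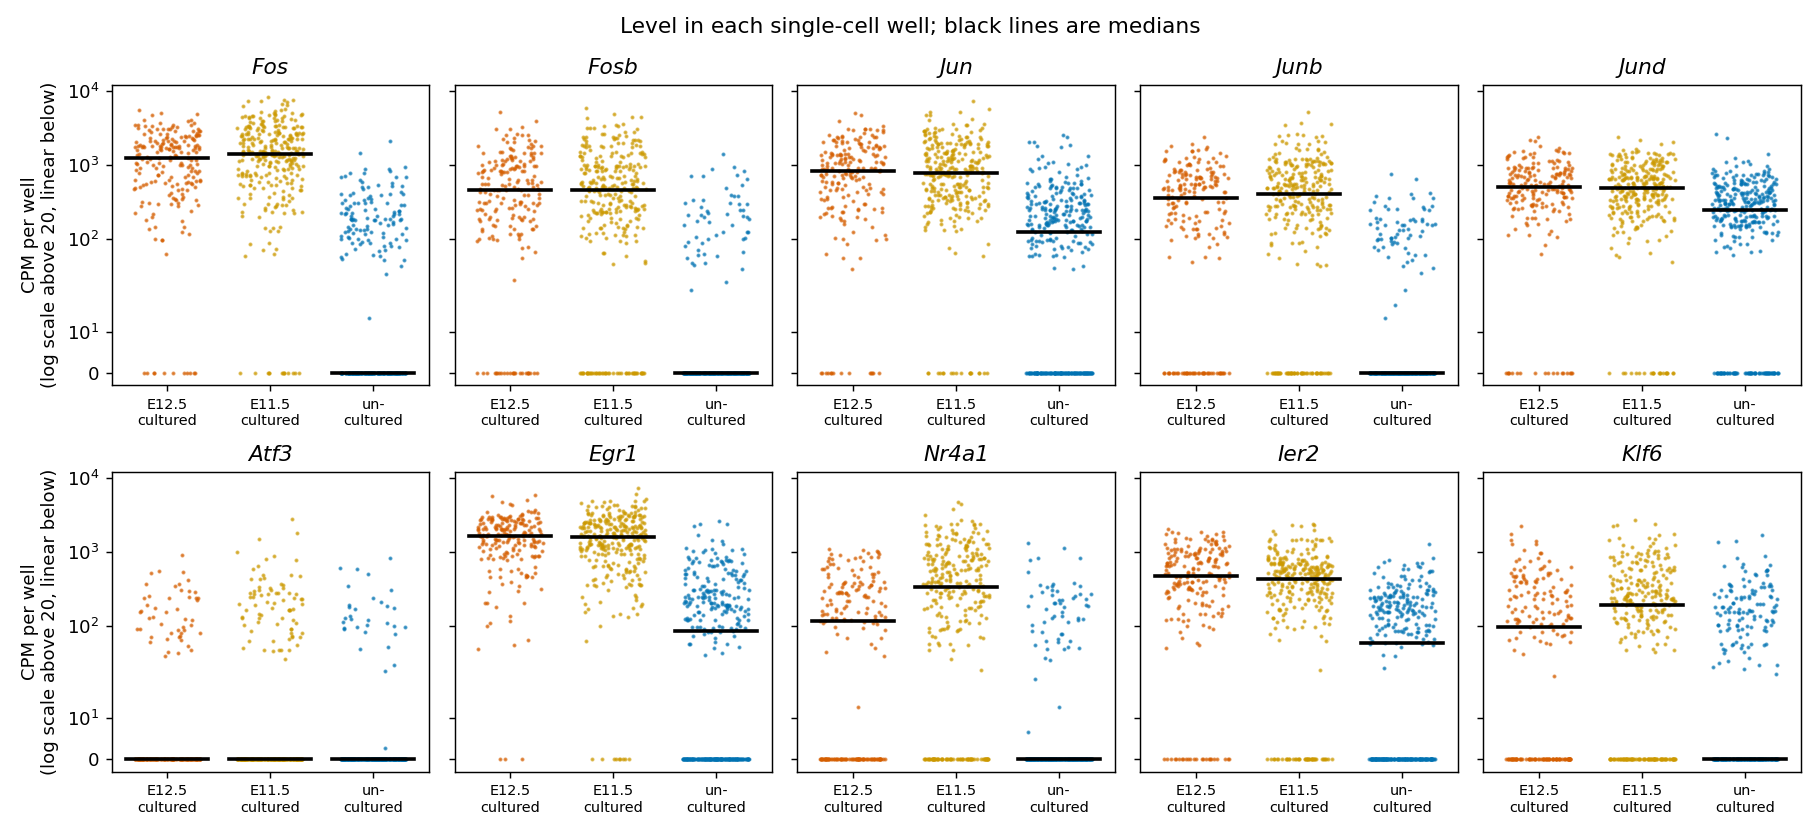
CPM of each member in every kept single-cell well (dots) of the E12.5 cultured, E11.5 cultured and uncultured plates, log scale above 20 CPM and linear below, with black lines at the median. The uncultured median is 0 for Fos, Fosb, Junb, Atf3, Nr4a1 and Klf6, while among cultured plates only that of Atf3 is 0.

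The cultured levels were spread over most cells. Summed over the 10 members, the median well held 6475 CPM on the E12.5 cultured plate (lowest 0, highest 21376), 6782 CPM on the E11.5 cultured plate (307 to 36198) and 962 CPM on the uncultured plate (0 to 7193). Of the 337 uncultured wells, 1 lay above the median of either cultured plate (0.297%), while 6 wells of the E12.5 cultured plate (3.0%) and 5 of the E11.5 cultured plate (1.67%) lay below the uncultured median. After thinning to 1000 counts, the median cultured well held a count of 4 of the 10 members on both plates, and the median uncultured well of 1. None of the 10 was found in 4.0% of the wells of each cultured plate and in 36.8% of uncultured wells, and 5 or more were found in 34.5%, 42.0% and 0.593%. In wells kept at 3000 counts the medians were 7, 7 and 2 members. The 15 control wells of each plate held medians of 129, 150 and 632 counts, and their 24, 30 and 9 member counts in all came to 8163, 10957 and 654 CPM, near each plate's own level, so wells without a sorted cell held a small number of counts of about plate-average composition.

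**Figure D3:**
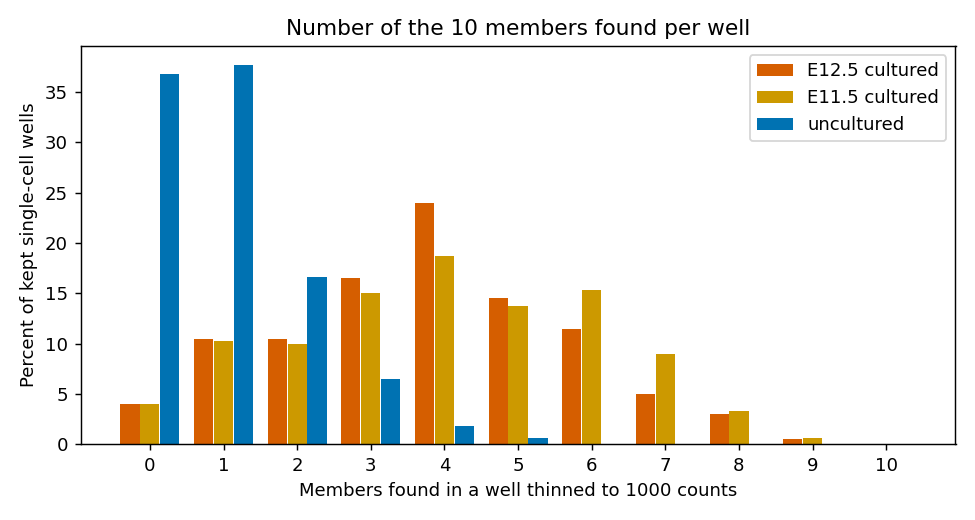
Percent of kept single-cell wells (y axis) by how many of the 10 members had a count (x axis) after thinning each well to 1000 counts, for the E12.5 cultured, E11.5 cultured and uncultured plates. Uncultured wells peak at 1 member and none exceeds 5, and cultured wells peak at 4 and reach 9.

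Fos and Egr1 were higher on the cultured plates within each class of wells set by marker counts, although on the cultured plates a Six2 count, found in leukocyte wells as well, need not mark the same cells as on the uncultured plate. In wells with Six2 and no Epcam, Fos stood at 1622 CPM on the E12.5 cultured plate, 1493 CPM on the E11.5 cultured plate and 70.0 CPM on the uncultured plate, and Egr1 at 1599, 1674 and 158 CPM. In wells with Col1a1 and neither Six2 nor Epcam, Fos stood at 1479 CPM on the E12.5 cultured plate, 1948 CPM on the E11.5 cultured plate and 166 CPM on the uncultured plate, and Egr1 at 1759, 1766 and 267 CPM. In wells with Epcam and no Six2, Fos stood at 896, 476 and 76.7 CPM, and Egr1 at 1379, 555 and 102 CPM. The leukocyte wells of the E11.5 cultured plate, those with at least 3 leukocyte markers, held 21.6% of its member counts and 19.8% of all its counts. Their Col1a1 level, 10460 CPM beside 11105 CPM over all kept wells, was near the plate's own, so not all need be leukocytes. With leukocyte wells left out of every plate, 9 members were at least 2-fold higher on either cultured plate, with median log2 ratios of 2.78 (E12.5) and 3.25 (E11.5). Fewer cells with a transcript and less RNA per cell can be told apart only as far as these single wells go, and RNA content per cell was not measured.

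Between the cultured plates the members differed little. With E12.5 set over E11.5, 0 members were at least 2-fold higher (background 4.53%) and 1 was at least 2-fold lower (background 8.33%), and the median log2 ratio was -0.25, beside -0.01 for all genes. The exception was Nr4a1, with 240 CPM in E12.5 cultured and 554 CPM in E11.5 cultured cells, a ratio of 0.433 (0.393 to 0.476). Its wells overlapped up to 1092 CPM, the highest E12.5 cultured well, and E11.5 cultured wells reached 4664 CPM. Egr1 and Jund had ratios of 0.995 (0.956 to 1.04) and 0.969 (0.901 to 1.04), whose intervals hold 1. Ier2 alone was higher on the E12.5 cultured plate, at 1.21 (1.13 to 1.31) times, and the other members stood between 0.609 for Atf3 and 0.913 for Jun. By CPM, 9 members therefore ran in the order E11.5 cultured, E12.5 cultured, uncultured, and the well ranges of all 3 plates overlapped for every member.

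Within a plate the members varied together from well to well, and their measured correlation was higher in cultured than in uncultured wells. On ln(1 + counts per 10000), the 45 pairs of members had a median Pearson r of 0.35 over 200 E12.5 cultured wells, 0.35 over 300 E11.5 cultured wells and 0.13 over 337 uncultured wells, as a description of wells that share a plate, a library and differing depths. With wells thinned to 3000 counts, the medians were 0.21 on both cultured plates and 0.09 on the uncultured plate. Thinning evens out depth but not gene level: Fos then averaged 4.31, 5.43 and 0.301 counts per well. Low counts by themselves lower r, and their part in the difference between plates was not tested. The r with mitochondrial share was -0.32, -0.29 and -0.07 for Fos, and 0.01, -0.03 and -0.07 for Atf3. Fos and Fosb were the highest pair on each plate, at 0.68, 0.61 and 0.44. Atf3 and Klf6 were the least coupled members of the cultured plates, with median r of 0.18 and 0.14 to the others on the E12.5 plate and 0.18 and 0.21 on the E11.5 plate. Jund had 0.31 and 0.27 in cultured wells and 0.05 in uncultured wells.

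Ranked among 6973 genes by the lower of the r with Fos on the 2 cultured plates, Fosb, Egr1 and Junb came first. The closest genes outside the 10 were Socs3, a feedback inhibitor of cytokine receptors, with r of 0.51 (E12.5 cultured) and 0.52 (E11.5 cultured), and Zfp36, which speeds the decay of short-lived RNAs, with 0.47 and 0.52. Next came the zinc-finger factor Klf4 (0.42 and 0.45), the antiproliferative Btg2 (0.42 and 0.52) and the collagen gene Col5a1 (0.38 and 0.36). On the uncultured plate the same genes had r with Fos of 0.15, 0.14, 0.12, 0.19 and 0.18. Col5a1 is no early response gene but a fibrillar collagen, and Col3a1 and Col1a1 followed close behind, both at 0.40 and 0.32. Of the members, Klf6 ranked only 26 and Atf3 85.

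Other immediate early genes were also higher in cultured cells, whereas few of their upstream kinases differed 2-fold. Of other immediate early genes, 27 of 37 measured were at least 2-fold higher on the E12.5 cultured plate and 2 lower, and 29 of 38 were higher on the E11.5 cultured plate and 0 lower, beside the 18.9% and 20.9% of all genes given above. Socs3 stood at 204 and 311 CPM in cultured cells and 7.93 CPM in uncultured cells, ratios of 25.8 (18.1 to 37.9) and 39.2 (27.7 to 57.3). Ctgf, a matrix-associated growth regulator, had ratios of 31.9 (15 to 80.9) and 29.1 (13.8 to 73.5), and the stress gene Gadd45b 31.6 (13 to 99.4) and 27.5 (11.4 to 86.3), with 7 and 5 uncultured counts behind them. Ier3 had 8.21 and 13.7. At the low end of this list, Tob1 had 0.340 (0.218 to 0.511) and 0.816 (0.622 to 1.07), and Hes1, a Notch target, 0.507 (0.421 to 0.609) and 0.625 (0.537 to 0.728).

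Among other bZIP factors, 9 of 17 measured were at least 2-fold higher and 1 lower on the E12.5 cultured plate, and 11 of 18 higher and 1 lower on the E11.5 cultured plate, where 18.9% and 20.9% of all genes were higher and 13.1% and 11.3% lower. Cebpd, a C/EBP factor of inflammation and fat cells, had ratios of 11.2 (7.64 to 16.9) and 16.0 (11.1 to 23.9), and its relative Cebpb 2.48 (1.80 to 3.45) and 10.2 (7.89 to 13.3). Atf5, a factor of the stress response, had 11.3 (9.32 to 13.8) and 11.9 (9.90 to 14.5), and Jdp2, which dimerizes with Jun and represses AP-1 sites, 7.72 (5.35 to 11.4) and 8.21 (5.75 to 12). Atf2, a partner of Jun that is regulated mainly by phosphorylation, was lower at 0.408 (0.342 to 0.483) and 0.476 (0.412 to 0.549), and Creb1 had 0.547 (0.450 to 0.661) and 0.660 (0.562 to 0.774). Of 20 upstream kinases and factors, such as the MAP kinases and the serum response factor complex, 1 was at least 2-fold higher and 0 lower on the E12.5 cultured plate, and 0 higher and 1 lower on the E11.5 cultured plate. Mapk3, which encodes ERK1, had the largest E11.5 cultured ratio among those with at least 50 counts, 1.72 (1.49 to 2.0), and Rps6ka3, a kinase downstream of ERK, the smallest, 0.480 (0.400 to 0.574).

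Of 20 feedback inhibitors, 4 were at least 2-fold higher and 2 lower on the E12.5 cultured plate, and 8 higher and 2 lower on the E11.5 cultured plate. The E12.5 cultured counts are near the shares of all genes, 18.9% higher and 13.1% lower. Ier3 and Zfp36 stand in this list too. Dusp1, a nuclear phosphatase that switches off MAP kinases, had ratios of 4.63 (3.60 to 6.01) and 7.28 (5.77 to 9.26), and Zfp36 3.70 (3.15 to 4.36) and 7.84 (6.80 to 9.07). Dusp8 had 1.13 (0.533 to 2.30) and 3.06 (1.83 to 5.29). Dusp6, an ERK phosphatase and common readout of FGF signalling in embryos, had 0.502 (0.403 to 0.621) and 0.580 (0.483 to 0.695), and Dusp2 0.793 (0.540 to 1.15) and 0.243 (0.138 to 0.405). Of 14 heat shock genes, which mark protein stress rather than the early response, 4 were higher and 2 lower on each cultured plate, with median log2 ratios of -0.05 and -0.27, beside 18.9% and 20.9% of all genes higher and 13.1% and 11.3% lower, so the counts lie close to the background on both plates. Hspa1a had 10.3 and 24.0 from 6 uncultured counts, Hspb1 3.44 and 5.26, Hspa1b 2.86 and 3.51 and Bag3 2.02 and 2.03, whereas Hspe1 had 0.376 and 0.322 and Hsph1 0.302 and 0.275. Of genes known as AP-1 responsive, 14 of 17 were higher on the E12.5 cultured plate and 14 of 18 on the E11.5 cultured plate, with 0 lower on either. The chemokine Ccl2 had ratios of 21.5 (11.6 to 43.9) and 25.4 (13.9 to 51.7), the protease inhibitor Timp3 3.55 and 6.20 and the matrix protein Tnc 3.78 and 5.42. Ccnd1, cyclin D1, had 1.03 (0.940 to 1.12) and 0.854 (0.784 to 0.931). Several of these are also stromal genes, and the stromal matrix markers were higher on the cultured plates by the CPM given above, whose part in the list's count was not tested.

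In counts summed over all kept wells, multi-cell over single-cell ratios went in opposite directions on the 2 cultured plates. On the E11.5 cultured plate that direction rested on 5 deep wells, as given below. On the E12.5 cultured plate 9 of 10 members were lower in multi-cell than in single-cell wells, with a median log2 ratio of -0.82 beside 0.06 for all genes. Of them 2 were at least 2-fold lower (background 11.2%) and 0 at least 2-fold higher (background 9.65%). Fos had 814 CPM (745 to 886) in multi-cell wells and 1463 CPM in single-cell wells, a ratio of 0.556 (0.506 to 0.610), and the multi-cell wells ran from 0 over a median of 694 to 3536 CPM. Junb had 220 and 461 CPM, a ratio of 0.477 (0.397 to 0.568), and Nr4a1 109 and 240 CPM, a ratio of 0.454 (0.349 to 0.583). Egr1, Jun and Fosb had ratios of 0.579, 0.549 and 0.532, and Ier2 0.739. Jund, Klf6 and Atf3 had 0.902 (0.795 to 1.02), 0.919 (0.754 to 1.11) and 1.06 (0.713 to 1.54), whose intervals hold 1.

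On the E11.5 cultured plate 9 of 10 members were higher in multi-cell wells, with a median log2 ratio of 0.39 beside -0.06 for all genes, but 0 were at least 2-fold higher (background 6.02%) or lower (background 9.35%). Fos had 2153 CPM in multi-cell wells and 1830 CPM in single-cell wells, a ratio of 1.18 (1.11 to 1.25). Atf3 came closest to 2-fold, with 172 and 89.4 CPM and a ratio of 1.92 (1.52 to 2.40), and Klf6 was the exception, with 244 and 336 CPM and a ratio of 0.728 (0.611 to 0.862). This direction rested on 5 deep multi-cell wells, which held 53.9% of the multi-cell counts and 67.9% of their member counts, 12384 CPM summed over members beside 6861 CPM in the other multi-cell wells. Without wells over 3 times the plate median, the median log2 ratio was -0.23, Fos had 0.835 (0.757 to 0.920) and Atf3 3.41 (2.62 to 4.38). With each well weighted equally it was -0.21.

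Wells of 5000 to 15000 counts comprised 16 multi-cell and 136 single-cell wells of E12.5 cultured cells, and 13 and 194 of E11.5 cultured cells. Within this depth window 9 of 10 members were lower in multi-cell wells on each plate, the exceptions being Atf3 (E12.5 cultured) and Jund (E11.5 cultured). The median log2 ratios were -1.11 and -0.82, with 5 and 2 members at least 2-fold lower, where 13.9% and 12.3% of genes were. Fos had ratios of 0.555 (0.461 to 0.663) and 0.536 (0.448 to 0.634), Egr1 0.505 (0.424 to 0.598) and 0.531 (0.439 to 0.636), and Jund 0.814 (0.637 to 1.03) and 1.08 (0.848 to 1.36). Atf3 had 0.404 on the E11.5 cultured plate in this window, against 1.92 over all wells. This depth window was chosen after the other values were seen. The cell makeup differed too: over all kept wells, the 9 progenitor markers summed to 1976 CPM in multi-cell and 383 CPM in single-cell wells of the E12.5 cultured plate, and to 884 and 238 CPM on the E11.5 cultured plate. The 10 stromal markers summed to 5852 and 20310 CPM on the E12.5 cultured plate and to 27784 and 26861 CPM on the E11.5 cultured plate. The 11 epithelial markers summed to 995 and 200 CPM on the E12.5 cultured plate and to 324 and 121 CPM on the E11.5 cultured plate, and the leukocyte markers to 1010 and 322 CPM and to 893 and 1585 CPM. In the 5 deep E11.5 cultured wells the stromal markers summed to 35325 CPM, beside 18961 CPM in the other multi-cell wells. In 1 multi-cell well of the E12.5 cultured plate, erythroid markers reached 579842 CPM, beside 11180 CPM summed over all multi-cell wells of the plate. The part of makeup and depth in the member ratios was not tested.

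**Figure D4:**
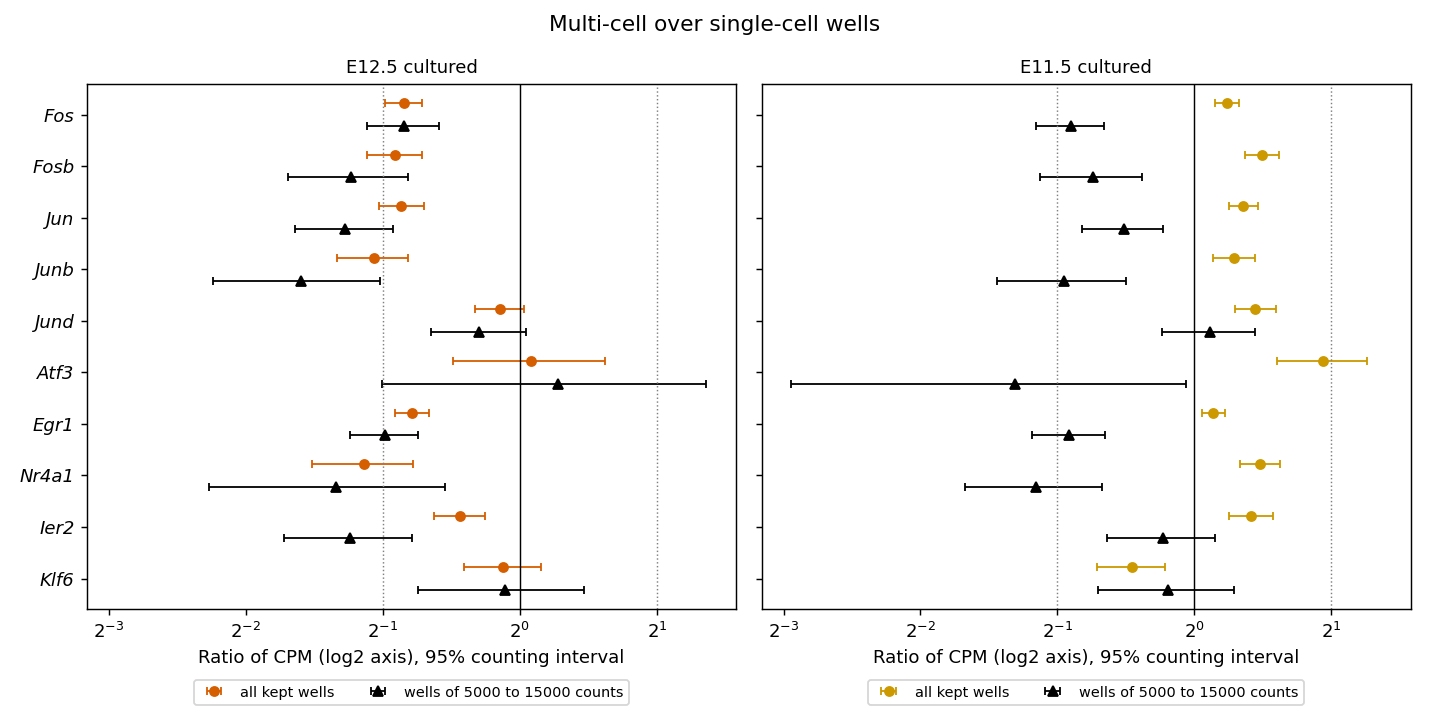
Ratio of CPM of each member in multi-cell over single-cell wells on a log2 axis, for the E12.5 cultured plate (left) and the E11.5 cultured plate (right), with 95% counting intervals; circles are all kept wells and triangles wells of 5000 to 15000 counts. On the E11.5 cultured plate Fos lies at 1.18 over all wells and 0.536 in the depth window.

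Wells of a plate were then split by 3 genes: Six2 wells had a count of Six2, a transcription factor of nephron progenitors, and none of Epcam; Epcam wells had Epcam, an adhesion molecule of epithelia, and no Six2; Col1a1 wells had Col1a1, a stromal collagen, and neither. Such wells numbered 36, 12 and 147 among E12.5 cultured cells, 48, 6 and 242 among E11.5 cultured cells and 136, 13 and 128 on the uncultured plate. Both Six2 and Epcam were found in 5, 4 and 25 wells, and 35 uncultured wells had none of the 3 genes. Other progenitor markers summed to 1343 CPM in uncultured Six2 wells and 269 CPM in uncultured Col1a1 wells. On the E12.5 cultured plate they summed to 668 and 166 CPM and on the E11.5 cultured plate to 414 and 143 CPM, while stromal markers other than Col1a1 stood at 16660 CPM in Six2 wells and 12795 CPM in Col1a1 wells of the E12.5 cultured plate, at 12069 and 17096 CPM for E11.5 cultured cells and at 1574 and 4825 CPM for uncultured cells. Six2 counts were found in 20.5% of kept E12.5 cultured wells and in 2 of 6 leukocyte wells, and in 17.3% (13.2 to 22.1) of kept E11.5 cultured wells and 12 of its 40 leukocyte wells (interval of the share 16.6 to 46.5%), at median depths of 8992 and 13759 counts. The E12.5 cultured leukocyte share has an interval of 4.33 to 77.7%. The leukocyte wells of these plates also held Col1a1, at 13230 CPM (E12.5) and 10460 CPM (E11.5), beside 7097 and 11105 CPM over all kept wells. The rule of 3 markers thus need not single out leukocytes. In the 4 and 15 wells with 3 or more of C1qa, C1qb, C1qc, Tyrobp and Fcer1g, Col1a1 stood at 329 and 3286 CPM. Six2 was found in 1 and 4 of these wells. On the cultured plates a Six2 count was thus not shown to be more frequent in kept wells than in leukocyte wells, which were deeper. On its own it was not shown to set a progenitor well apart there, although the other progenitor markers were higher in Six2 wells. On the uncultured plate Six2 was found in 47.8% (42.3 to 53.3) of kept wells and 5 of 20 leukocyte wells (8.66 to 49.1%), at 6732 and 6121 counts. These intervals overlap as well. Col1a1 had a count in 199 of 200 and 300 of 300 kept cultured wells, in all 6 and all 40 of their leukocyte wells, and in 10 and 12 of the 15 control wells, so the Col1a1 wells of these plates are nearly all the wells that lack the other two genes. On the uncultured plate Col1a1 was found in 73.0% (67.9 to 77.7) of kept wells, at 601 CPM, in 60.0% (36.1 to 80.9) of leukocyte wells, at 210 CPM, and in 5 of 15 control wells.

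In uncultured cells all 10 members were lower in Six2 wells than in Col1a1 wells, with a median log2 ratio of -1.07 beside -0.02 for all genes. Of them 7 were at least 2-fold lower (background 8.58%) and 0 at least 2-fold higher (background 6.24%). Atf3 had 3.21 CPM (1.04 to 7.49) in Six2 wells and 34.6 CPM (23.4 to 49.4) in Col1a1 wells, a ratio of 0.0927 (0.0281 to 0.241), from 5 and 30 counts. Nr4a1 had 21.8 and 69.2 CPM, a ratio of 0.315 (0.201 to 0.488), and Klf6 54.6 and 151 CPM, a ratio of 0.361 (0.271 to 0.478). Fos had 70.0 CPM in Six2 wells and 166 CPM in Col1a1 wells, a ratio of 0.421 (0.325 to 0.544), and was found in 30.9% and 36.7% of them, so the wells overlapped widely and the medians of both classes were 0. Fosb, Junb and Jun had ratios of 0.467, 0.484 and 0.496. Jund had 0.841 (0.723 to 0.978), Ier2 0.710 (0.557 to 0.906) and Egr1 0.593 (0.493 to 0.712). Summed, the members stood at 896 CPM (850 to 944) in Six2 wells and 1587 CPM (1504 to 1673) in Col1a1 wells, with well medians of 744 and 1252 CPM. Six2 wells were deeper, at a median of 8529 against 5508 counts, and leukocyte wells numbered 5 and 10. In wells of 5000 to 15000 counts 8 members were at least 2-fold lower, without leukocyte wells 5 were, and with classes set on wells thinned to 1000 counts 1 was, at median log2 ratios of -1.32, -1.05 and -0.81.

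On the cultured plates no member differed 2-fold between Six2 and Col1a1 wells, where 8.22% of genes were lower and 4.02% higher on the E12.5 plate, and 7.54% and 4.26% on the E11.5 plate. The median log2 ratios were -0.11 and -0.21. Klf6 came nearest, with 143 CPM in Six2 wells and 255 CPM in Col1a1 wells of the E12.5 cultured plate, a ratio of 0.561 (0.441 to 0.709), against 1.03 (0.878 to 1.20) on the E11.5 cultured plate. Fos had ratios of 1.10 (1.02 to 1.18) and 0.766 (0.713 to 0.823). With classes set on thinned wells, which left 9 and 12 Six2 wells, 5 members were at least 2-fold lower on each cultured plate (background 10.9% and 9.34%). The count of 0 therefore depends on how wells are assigned. Without thinning, Six2 wells were deeper than Col1a1 wells, at medians of 14564 against 8236 counts (E12.5 cultured) and 10134 against 8711 (E11.5 cultured).

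Epcam wells were few, and their members were mostly lower than in Col1a1 wells. On the E12.5 cultured plate 3 of 10 members were at least 2-fold lower (background 11.9%) and 0 higher (background 21.0%), with a median log2 ratio of -0.58 beside 0.20 for all genes. Fosb had 262 CPM in Epcam wells and 740 CPM in Col1a1 wells, a ratio of 0.353 (0.239 to 0.504), Nr4a1 50.6 and 246 CPM, a ratio of 0.206 (0.0749 to 0.451), and Atf3 a ratio of 0.157 (0.00392 to 0.898) from 1 count in Epcam wells. Egr1 was found in all 12 Epcam wells, with 1379 CPM against 1759 CPM. On the E11.5 cultured plate, in 6 Epcam wells, 4 members were at least 2-fold lower (background 10.2%) and 0 higher (background 38.9%), at a median log2 ratio of -0.74 beside 0.59 for all genes. Fos had 476 and 1948 CPM, a ratio of 0.244 (0.165 to 0.349), Egr1 555 and 1766 CPM, a ratio of 0.314 (0.219 to 0.438), and Klf6 523 and 331 CPM, a ratio of 1.58 (1.08 to 2.24). On the uncultured plate 5 members were at least 2-fold lower (background 13.0%) and 0 higher (background 10.1%). Egr1 had 102 and 267 CPM there, a ratio of 0.384 (0.195 to 0.683), and Fos 76.7 and 166 CPM, a ratio of 0.461 (0.207 to 0.901), from 12 and 9 counts in Epcam wells. The other 3, Fosb, Nr4a1 and Atf3, had 2, 3 and 1 counts there, and without wells over 3 times the plate median the count of members was 2. Genes without a count in Epcam wells were given the floor of 3 counts, which raised the shares higher and the medians of all genes. Among genes with at least 50 counts in the pair, 6.89%, 14.2% and 3.04% were higher (E12.5 cultured, E11.5 cultured, uncultured) and 15.7%, 16.0% and 11.7% lower. Members lower then numbered 3, 4 and 4, of 10, 10 and 9 compared. Other epithelial markers summed to 2973, 3763 and 1031 CPM in the Epcam wells of the 3 plates and to 18.8, 40.4 and 63.6 CPM in their Col1a1 wells, so the Epcam wells carried their label. The sum of the members was 4858, 4345 and 912 CPM in Epcam wells and 7193, 8312 and 1587 CPM in Col1a1 wells.

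**Figure D5:**
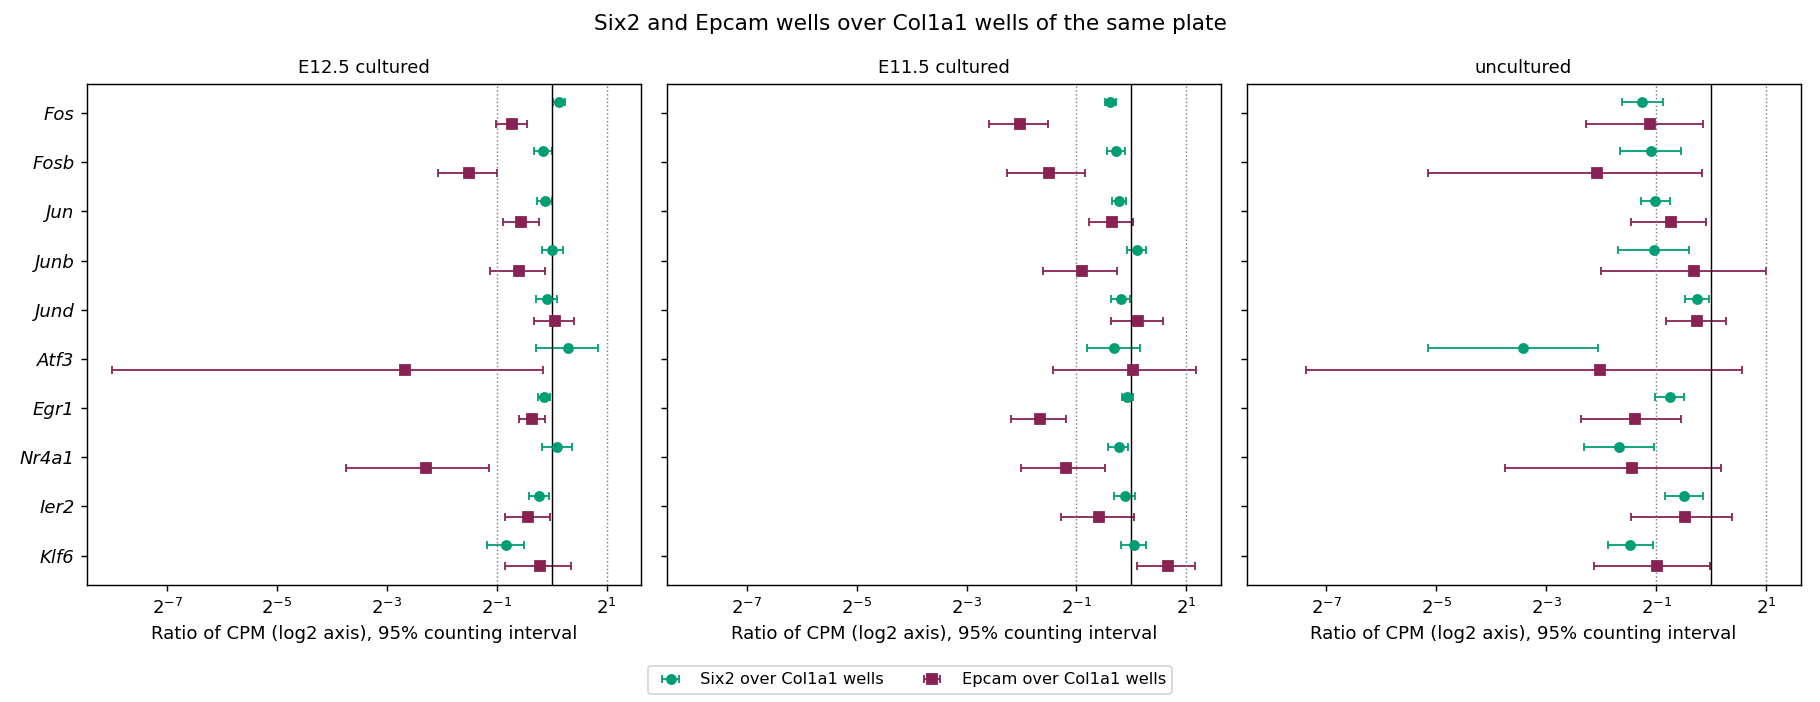
Ratio of CPM of each member in Six2 wells (circles) and Epcam wells (squares) over Col1a1 wells of the same plate, on a log2 axis, with 95% counting intervals, for the E12.5 cultured, E11.5 cultured and uncultured plates. Six2 wells lie on both sides of 1 on the cultured plates, lowest at 0.561 for Klf6 (E12.5 cultured), and below 1 for all 10 members on the uncultured plate.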

How the data were processed

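The authors deposited 1 table of expected counts per plate, with genes in rows and wells in columns. On the values, 100% of those above 0 equal, within 0.1, a number of distinct identifiers corrected for 4096 possible ones, and 1.63% are not whole. Per the submitters' processing notes the tools were STAR 2.6.1a and featureCounts 1.5.2 with build GRCm38.p5; strand settings are not given in the sources used here. All 10 members, the gene lists and the marker lists were chosen with earlier results of these data known.

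A column named UNK, taken by its name to hold counts of no known well, 4.27%, 4.26% and 4.21% of the plate totals (E12.5 cultured, E11.5 cultured, uncultured), was left out. Single-cell wells were kept from 1000 counts upward if no more than 30% of counts were mitochondrial, labelled control and multi-cell wells being set apart. No doublet caller was run, and no well position held identical values on 2 plates. CPM left out mitochondrial genes, spike-ins and added sequences. Values were rounded for intervals and thinning, drawn without replacement with seed 0. Genes with at least 10 counts in a pair were compared by the ratio of CPM, and a ratio of at least 2 or at most 0.5 was counted. A fold against 0 counts used a floor of 3 counts. No count model was fitted and no p-value computed. All members are named. Of each list, the up to 4 highest and 2 lowest E11.5 cultured over uncultured ratios among genes with at least 50 counts are named, and the 5 genes most like Fos among those found in at least 20% of the wells of both cultured plates. Alternatives changed the well filters, fold, scaling, class rule, plate columns and depth. Scripts were tested on simulated data, with python 3.11.15, numpy 2.4.6, pandas 2.3.3, scipy 1.17.1 and matplotlib 3.10.9.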

Additional observations from a re-analysis of the deposited data

Results flagged for a closer look

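In 7 members the multi-cell to single-cell ratio of summed counts lay below 1 on the E12.5 cultured plate and above 1 on the E11.5 cultured plate. Each counting interval, which does not cover the spread between wells, lay on its own side of 1. The ratios were 0.556 and 1.18 for Fos, 0.532 and 1.41 for Fosb, 0.549 and 1.28 for Jun, 0.477 and 1.22 for Junb, 0.579 and 1.10 for Egr1, 0.454 and 1.39 for Nr4a1, and 0.739 and 1.33 for Ier2. With 1 plate each, the difference between the plates was not tested. The E11.5 cultured direction rested on 5 deep multi-cell wells. With each well weighted equally, the median log2 ratio of the 10 members was -0.56 on the E12.5 and -0.21 on the E11.5 cultured plate. In wells of 5000 to 15000 counts, the E11.5 cultured ratios of these 7 lay between 0.449 for Nr4a1 and 0.853 for Ier2.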

How the results depend on the processing

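The counts of members at least 2-fold higher than on the uncultured plate stayed at 9 or 10 under all 12 alternatives to each comparison, and median log2 ratios ran from 2.29 to 2.78 (E12.5 cultured) and 2.62 to 3.25 (E11.5 cultured). Jund crossed the 2-fold line, with ratios of 1.82 to 2.13 and 1.87 to 2.04, and Klf6 reached 1.94 on the E12.5 cultured plate. In all 10 members the thinned share of wells stayed above the uncultured one on both cultured plates. For E12.5 over E11.5 cultured the count of 1 became 2 at a fold of 1.5, in even plate columns and in wells of 5000 to 15000 counts. For multi-cell over single-cell wells on the E12.5 cultured plate the count of 2 became 1 with wells weighted equally, 6 at a fold of 1.5, 1 without leukocyte wells and 5 in the depth window. On the E11.5 cultured plate the count of 0 became 1 higher without deep wells, at a fold of 1.5, without leukocyte wells and with single-cell wells of rows A to G, and 2 lower in the depth window. For Six2 over Col1a1 wells the count of 0 became 1 on the E12.5 cultured plate at a fold of 1.5, in even columns and with at least 2 counts of the class gene, and 5 with thinned classes. It became 1 on the E11.5 cultured plate without leukocyte wells and 5 with thinned classes. The uncultured count of 7 became 4 in odd columns and 1 with thinned classes. For Epcam over Col1a1 wells the E12.5 cultured count of 3 became 5 at a fold of 1.5, 6 in odd columns (2 higher and 4 lower, from 3 Epcam wells), 5 with thinned classes and 5 with classes by the highest relative CPM. The E11.5 cultured count of 4 became 1 with thinned classes and 2 by the highest relative CPM, and the uncultured count of 5 became 2 without deep wells, 2 with wells weighted equally, 1 with at least 2 counts, 2 with thinned classes (1 higher and 1 lower) and 2 in the depth window. The within-well median r of 0.35 became 0.21 on both cultured plates at 3000 counts. Of ratios past 2-fold, 9 alternative values changed side, all in Epcam wells: Atf3 to 2.69 in odd columns and 1.90 with thinned classes on the E12.5 cultured plate, Nr4a1 to 1.05 with thinned classes on the E11.5 cultured plate, and on the uncultured plate Fosb to 1.05, Atf3 to 2.97 and Egr1 to 1.16 in odd columns, Atf3 to 1.54 with at least 2 counts, and Fosb and Nr4a1 to 1.26 each with thinned classes. Where a count moved, the cause was not tested. Of 1476 alternative values of single members, 1203 stayed within the interval of the reported ratio. The fold of 1.5 and the minimum of 50 counts in the pair leave a member's ratio unchanged. Their values could not move, and they enlarge this count and the totals that follow. On the other side of 1 from the reported ratio lay 9 of the 543 values of members past 2-fold and 111 of the 933 values of members not past it, 23 of them in multi-cell over single-cell wells of the E11.5 cultured plate. Epcam wells limit the depth, with 118488, 63087 and 117372 counts. No paired analysis was possible because each group is 1 plate.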
